A study of Mus musculus with 32 samples.

Results

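The genes described here encode the heterogeneous nuclear ribonucleoproteins (hnRNP proteins) and the serine and arginine rich (SR) splicing factors of the mouse. They were chosen by name alone: protein-coding genes whose GENCODE M21 symbol starts with Hnrnp, or with Srsf and a number. The rule found 29 of the 25041 genes with a position on GRCm38, of which 19 are Hnrnp genes and 10 are Srsf genes. The rule uses no measured value, but it was set with earlier results of these data known.

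Both families act on the nascent transcript. SR proteins bind enhancer elements in exons through RNA recognition motifs and recruit the spliceosome through a domain of alternating arginine and serine, which the SRPK and CLK kinases phosphorylate. The hnRNP proteins coat pre-mRNA, often repress the use of a nearby splice site, and also act in RNA export, stability and translation. Many genes of both families carry poison exons, whose inclusion sends the transcript to nonsense-mediated decay, so the level of a transcript here is the sum over its isoforms. Cisplatin links neighbouring guanines in DNA, and the links are cut out by nucleotide excision repair, which is fastest on the transcribed strand (TS) of an active gene because a stalled RNA polymerase recruits it. The non-transcribed strand (NTS) is repaired by the slower global pathway.

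Wild-type female C57BL/6J mice of 6 to 7 months received a single intraperitoneal dose of cisplatin at 10 mg per kg, and control mice received saline. Injection was at zeitgeber time 1 and the organs were taken at zeitgeber time 5, whereas a label of each sample gives 2 h after treatment. The paper that reported these data gives the interval between the zeitgeber times as the length of treatment. Kidney, liver, lung and spleen were each profiled in 2 libraries per group, by RNA-seq in control and cisplatin-treated mice and by Damage-seq and XR-seq in cisplatin-treated mice only. Damage-seq counts adducts still in the DNA and XR-seq counts the excised oligomers that carried them. The libraries held 15618896 to 162263254 reads on genes in RNA-seq, 10656908 to 59761739 in XR-seq and 1570404 to 6438357 in Damage-seq. The RNA labels of lung and spleen are those of a later correction by the submitters, who exchanged control and cisplatin in these organs. With these labels Cdkn1a, the p53 target that arrests the cell cycle, was called higher after cisplatin in the kidney and lung. Its log2 fold change was 4.33 in the kidney and 1.90 in the lung. It was 3.07 in the liver and 1.50 in the spleen, where it was not called. The check of the response held 3 genes, Cdkn1a, Mdm2 and Per1. Of these, 3 were called higher in the kidney, 2 in the lung and 0 in the liver or spleen. In the spleen Mdm2 had 16.1 and 17.7 RPKM (defined below) in controls and 15.1 and 15.9 after cisplatin. Per1 had 4.11 and 4.14 RPKM in spleen controls and 7.42 and 9.36 after cisplatin. The control pairs of lung and spleen had a dispersion index of 2.75 and 2.99, where sampling noise alone gives about 1 and the other RNA pairs had 39.3 or more. With the limit set at 3 they were each summed into 1 sample. Damage-seq pairs had an index of 1.43 (spleen TS) to 3.11 (kidney NTS), and all but kidney NTS were below that limit. They were not summed, and each Damage-seq library was kept as a replicate. Whether these pairs are independent samples was not tested. Nothing in the labels says which libraries came from the same animal, and a p-value measures only the spread between these libraries.

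Each organ carried the markers of its own tissue. The summed level of 6 kidney markers was 12981 to 20214 reads per kilobase of exon and per 1000000 reads (RPKM) in kidney libraries and at most 50.96 in the other organs. That of 6 liver markers was 66473 to 140310 in the liver and at most 217.6 elsewhere, and that of 6 lung markers was 82994 to 101280 in the lung and at most 84.9 elsewhere. The 8 lymphocyte markers summed to 1066 to 1242 RPKM in the spleen. The 2 spleen libraries labelled cisplatin stood apart from the others, with 8 pancreatic acinar markers at 1399 and 1045 RPKM against 5.65 and 5.42 in the spleen controls. All 8 acinar markers were called higher in spleen after cisplatin, and their part in the spleen values given below was not tested.

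In untreated organs these genes were among the more abundant transcripts. The median level of the 29 genes was 22.8 RPKM in the kidney, 17.9 in the liver, 25.6 in the lung and 43.6 in the spleen, which lay at percentile 88.5, 83.5, 92.2 and 95.7 of the expressed genes. Levels are the mean of 2 control libraries, scaled by TMM factors and divided by the length of all annotated exons of the gene together. By the mean over the 4 organs, the highest level belonged to Hnrnpa2b1, which binds RNA and directs microRNA sorting and transport, at 87.6 RPKM in the kidney, 101 in the liver, 80.5 in the lung and 166 in the spleen. Hnrnpab, an A/B-type hnRNP, was next by this mean, at 51.7, 66.0, 55.0 and 78.5 RPKM in the same order. Hnrnpc, which binds uridine tracts, came after it at 44.4, 59.2, 52.6 and 78.4 RPKM. The order differed within organs, with Srsf5 at 91.9 and Hnrnpa0 at 81.1 RPKM above both in the spleen. The libraries of Hnrnpab and Hnrnpc overlapped in liver and spleen, so the order of these neighbours did not exceed their spread there.

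At the low end were Hnrnpll, known as a regulator of Cd45 splicing in lymphocytes, with 4.15 to 5.58 RPKM over the 4 organs, and Hnrnpr, with 2.42 to 5.55 RPKM. The annotated exons of Hnrnpr cover 22199 bases, against 3047 in Hnrnpf. In kidney controls Hnrnpr had 1588 and 2713 reads and Hnrnpf 704 and 1886, so the low rank of Hnrnpr does not mean few reads. Srsf12, a splicing repressor of the SR family, was lowest with 0.0184 to 0.199 RPKM and only 1 to 14 reads in each control library of kidney, liver and lung. It had 38 and 53 reads in the spleen control libraries. Srsf5, Srsf2 and Srsf6 led the SR family with means over the 4 organs of 52.9, 40.4 and 38.4 RPKM.

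**Figure D1:**
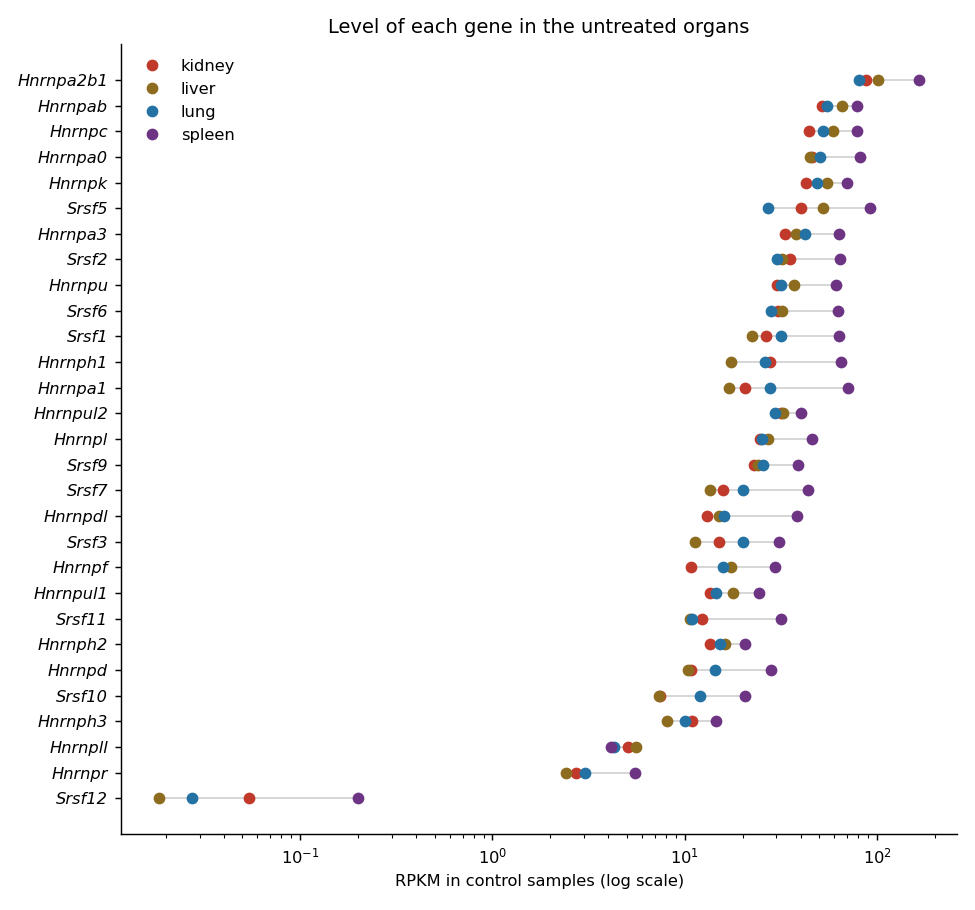
Level of each of the 29 genes in the untreated organs, in RPKM on a log axis, each point the mean of 2 control libraries. The purple spleen point is the rightmost in 28 of the 29 genes, the exception being Hnrnpll.

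Untreated spleen carried more of these transcripts than the other organs. The 29 genes summed to 1434 RPKM in the spleen against 727 in the kidney, 794 in the liver and 769 in the lung. Both spleen control libraries were above all 6 control libraries of the other organs in 28 of the 29 genes, against 30.4% of 18654 genes. By the dispersion index above, the spleen control pair counts as 1 sample, and so does the lung control pair. Each was summed in the fit that follows, so the spread there came from the other groups. In 1 fit over all RNA libraries, spleen controls were compared with the mean of the other control organs (edgeR, test against a log2 difference of 0.4). This called 14 of the 29 genes higher in the spleen and none lower, where 24.1% of all 19088 genes were called higher and 17.1% lower. The median log2 difference of the 29 genes was 1.05 against 0.21 over all genes. In bulk tissue a difference in RNA per cell and a difference in the cells present cannot be told apart.

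Hnrnpa1, the prototype splicing repressor that counters SR proteins, had the clearest difference. Its control level was 68.3 and 73.2 RPKM in the spleen, 21.8 and 19.1 in the kidney, 17.5 and 16.4 in the liver, and 26.7 and 28.6 in the lung. The spleen pair lay far above all others, with a log2 difference of 1.80 (SE 0.20, edgeR adjusted p = 0.000102). Srsf7, an SR protein with a zinc knuckle that also links splicing to export, had 41.5 and 45.6 RPKM in the spleen against 10.3 to 21.1 in the other 6 libraries (log2 difference 1.50, SE 0.33, edgeR adjusted p = 0.00836). Srsf11, an SR-like protein, had 30.6 and 32.9 RPKM against 7.33 to 17.2 (log2 difference 1.56, SE 0.43, edgeR adjusted p = 0.0217). Hnrnpd, also called AUF1, a regulator of AU-rich transcripts, had 27.7 and 28.8 RPKM against 10.3 to 14.8 (log2 difference 1.32, SE 0.18, edgeR adjusted p = 0.000665). In these 4 genes the spleen libraries did not overlap the rest, but the spleen pair counts as 1 sample.

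The other genes called higher in untreated spleen were Srsf12 (log2 difference 2.59), Hnrnph1 (1.56), Hnrnpdl (1.45), Srsf1 (1.32), Srsf6 (1.12), Srsf3 (1.11), Hnrnpr (1.11), Hnrnpf (1.10), Hnrnpl (0.89) and Hnrnpa0 (0.84). With the median-of-ratios scaling of DESeq2 the median of all genes moved from 0.21 to 0.04 in this contrast, and 9 genes were called. Leaving out single control libraries gave 10 to 18 calls. The 6 dividing cell markers summed to 94.1 and 100.2 RPKM in the spleen controls and to 2.75 to 23.6 in the other control libraries, and the 8 lymphocyte markers to 1066 and 1112 against 4.94 to 137. The part of cell division and of lymphocytes in the spleen level was not tested.

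Lower levels were called in few genes. In untreated kidney Hnrnpf, a binder of guanine tracts, was lower than the mean of the other organs (10.5 and 11.1 RPKM, log2 difference -0.93, SE 0.16, edgeR adjusted p = 0.00386), and no gene was higher. The background was 19.6% higher and 15.7% lower. In untreated liver Hnrnpa1 (log2 difference -1.05), Srsf3 (-0.95) and Hnrnpd (-0.70) were lower and none was higher, against 17.7% higher and 24.6% lower of all genes. Under the median-of-ratios scaling 1 gene was called in liver. Without kidney control replicate 1 there were 4 calls in the kidney. Without liver control replicate 1 there was 1 call in the liver. In untreated lung edgeR called 0 of the 29 genes in either direction and 0 had an unadjusted p under 0.05, where 18.3% of all genes were higher and 5.85% lower. Each of these contrasts includes spleen, the organ with the highest level, among the organs compared with.

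Cisplatin changed few of these genes past the threshold, and the largest differences in kidney, liver and lung were in the Srsf family. The response was tested organ by organ with edgeR against a log2 fold change of 0.4 and adjusted over all genes tested. Only Srsf5 in lung was called. In kidney 0 of 28 genes were called, where 2.41% of 15462 genes were higher and 2.65% lower. An unadjusted p under 0.05 in edgeR was found for 8 of the 28 and for 2936 of all genes. DESeq2 also called 0 in the kidney. In liver 0 of 28 genes and 0% of 13862 genes were called in either direction, with 1 of the 28 and 1262 of all genes at an unadjusted p under 0.05, and DESeq2 called 0 of the 28 and 189 of all genes. In lung 1 of 29 genes was called higher and none lower, where 0.126% of 18246 genes were higher and 1.97% lower, and DESeq2 also called 1. In spleen 0 of 29 were called by edgeR or DESeq2 and 0 had an unadjusted p under 0.05, where 0.164% of 17676 genes were higher and 0.0170% lower. Srsf12 was too low to be tested in kidney and liver.

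Srsf5, an SR protein that shuttles between nucleus and cytoplasm and whose gene (chromosome 12, 80945504 to 80950507, plus strand, GRCm38) was first known as induced by insulin, had 26.4 and 28.0 RPKM in lung controls and 75.3 and 86.4 RPKM after cisplatin. Both treated lung libraries were above both controls. The log2 fold change was 1.52 (SE 0.18, 1 summed control and 2 cisplatin samples, edgeR adjusted p = 0.0247), a 2.87-fold rise. In kidney Srsf5 had 60.8 and 19.7 RPKM in controls and 118 and 71.8 after cisplatin (log2 fold change 1.23, SE 0.54). In liver it had 77.5 and 27.1 RPKM in controls and 124 and 81.6 after cisplatin (log2 fold change 1.03, SE 0.54). The treated libraries lay above the controls in both organs, but the control pairs differed widely and neither organ passed the test. In spleen it had 88.5 and 95.4 RPKM in controls and 77.8 and 89.4 after cisplatin, and these overlapped.

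The lung call rested on few samples. In the fit over all organs, where the spread of all groups is shared, the log2 fold change of Srsf5 in lung was 1.53 with an edgeR adjusted p of 0.791. Leaving out cisplatin replicate 1 or 2 in that fit gave log2 fold changes of 1.63 and 1.42 with 0 of the 29 genes called. With each lung control library as a replicate of its own, 2 genes were called, Srsf5 and Srsf6. In the same lung libraries the 8 lymphocyte markers summed to 131 and 137 RPKM in controls and to 46.7 and 36.3 after cisplatin, with 6 of 8 called lower. The 6 dividing cell markers summed to 22.6 and 23.6 RPKM in controls and to 8.57 and 7.09 after cisplatin, with 3 of 6 called lower, and the 6 erythroid markers to 7909 and 7818 against 4304 and 3385. The part of these cells in the Srsf5 value was not tested.

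**Figure D2:**
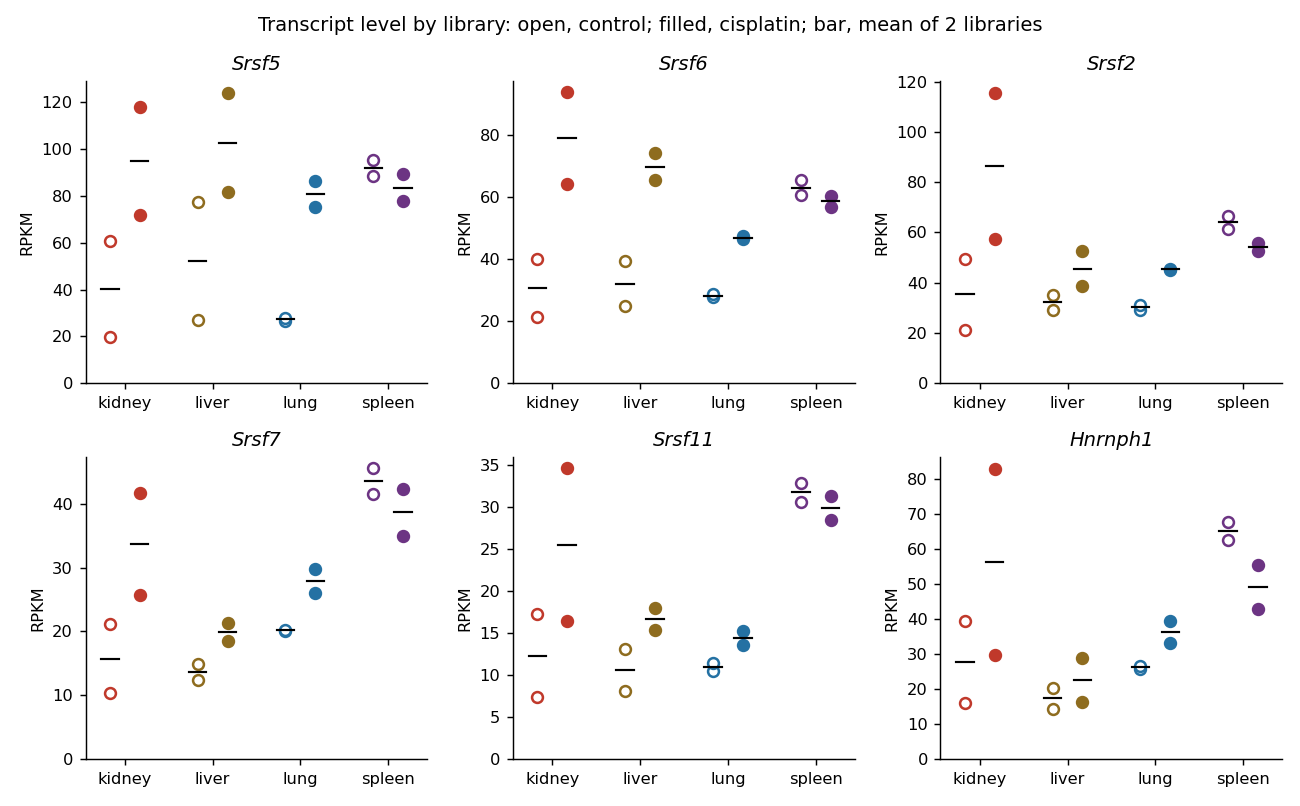
RPKM of 6 genes in each RNA-seq library (linear axis from 0), with open circles for control, filled circles for cisplatin and a bar for the mean of 2 libraries. Srsf5 in lung separates 26.4 and 28.0 from 75.3 and 86.4 RPKM, while the kidney and liver pairs differ within a group by up to a few fold.

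In kidney, 5 of the 9 Srsf genes tested and 1 of the 19 Hnrnp genes had a log2 fold change above 1. These 6 genes are described by size, a choice made after their values were seen, and none passed the test. Srsf6, which acts on exon inclusion in many tissues, had 39.8 and 21.3 RPKM in controls and 93.6 and 64.3 after cisplatin (log2 fold change 1.36, SE 0.35, edgeR adjusted p = 0.115). Srsf2, also called SC35, which marks nuclear speckles, had 49.4 and 21.2 RPKM in controls and 116 and 57.3 after cisplatin (1.28, SE 0.49, edgeR adjusted p = 0.266). In both genes the treated libraries lay above both controls. Srsf7 likewise had 21.1 and 10.3 RPKM in controls and 41.8 and 25.7 after cisplatin (1.10, SE 0.40).

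Srsf11 had 17.2 and 7.33 RPKM in controls and 34.6 and 16.4 after cisplatin (1.05, SE 0.50). Hnrnph1, a binder of guanine runs that guides splicing through them, had 39.5 and 15.9 RPKM in controls and 82.9 and 29.8 after cisplatin (1.02, SE 0.59). In these 2 genes the groups overlapped. In all 6 genes replicate 1 was above replicate 2 in both kidney groups. Without kidney control replicate 1, the log2 fold changes of these 6 genes were 1.72 (Srsf7) to 2.28 (Srsf5). Without kidney control replicate 2 they were 0.49 (Hnrnph1) to 0.97 (Srsf6), all below the size of 1 by which the genes were picked. With no filter on low counts the edgeR test called these 6. The count over all genes, 782 in either direction, was then 1901.

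In liver Srsf6, Srsf5, Srsf11 and Srsf7 had the largest log2 fold changes of the 28 genes, and none was called. Srsf6 had 39.2 and 25.0 RPKM in controls and 74.2 and 65.2 after cisplatin (log2 fold change 1.17, SE 0.37), and Srsf11 had 13.1 and 8.11 RPKM in controls and 18.0 and 15.3 after cisplatin (0.70, SE 0.36). In lung Srsf6 had 27.6 and 28.9 RPKM in controls and 46.5 and 47.3 after cisplatin (0.69, SE 0.16, edgeR adjusted p = 0.257). Srsf2 in lung had 29.2 and 31.0 RPKM in controls and 45.1 and 45.5 after cisplatin (0.54, SE 0.16). In lung the treated libraries of both genes were above the controls and close to each other.

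Of the other Hnrnp genes, 6 had kidney log2 fold changes from 0.64 to 0.83, with SE of 0.15 to 0.22. Hnrnpu, also called SAF-A, a scaffold attachment protein, had 33.8 and 26.6 RPKM in controls and 60.5 and 47.0 after cisplatin (log2 fold change 0.83, SE 0.22). Hnrnpf had 10.5 and 11.1 RPKM in controls and 18.1 and 19.4 after cisplatin (0.80, SE 0.16). Hnrnph2 had 14.3 and 12.8 RPKM in controls and 24.4 and 22.5 after cisplatin (0.79, SE 0.17). Hnrnpab, Hnrnpc and Hnrnpa0 had log2 fold changes of 0.73, 0.72 and 0.64. In each of these 6 genes both treated libraries were above both controls, and none passed the test against 0.4. The paper, which used DESeq2 with a threshold of 0.4, lists Hnrnpu among the genes upregulated in the kidney. Hnrnpu was not called there by edgeR or DESeq2 in the tests made here. The reason for this difference was not tested. Tested against 0, 4 Hnrnp genes and 0 Srsf genes were called higher in the kidney, where 1711 of all 15462 genes were called in either direction. Hnrnpd had the lowest value in the kidney, at 11.1 and 10.5 RPKM in controls and 7.83 and 8.53 after cisplatin (log2 fold change -0.40, SE 0.16).

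Over the families, the median log2 fold change of the Srsf genes was 1.05 in the kidney, 0.55 in the liver, 0.39 in the lung and -0.13 in the spleen, and that of the Hnrnp genes was 0.26, 0.13, 0.09 and -0.02. The median of all genes was at most 0.06 in each organ, and at most 0.07 with the median-of-ratios scaling. In kidney 14 of 28 genes had both treated libraries above both controls and 1 had both below, where the shares of all genes were 27.8% and 28.9%. In liver the counts were 10 and 4 of 28, against 20.5% and 21.5%. In spleen the log2 fold changes ran from -0.42 (Hnrnph1) to 0.26 (Srsf9), 18 below 0 and 11 above.

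**Figure D3:**
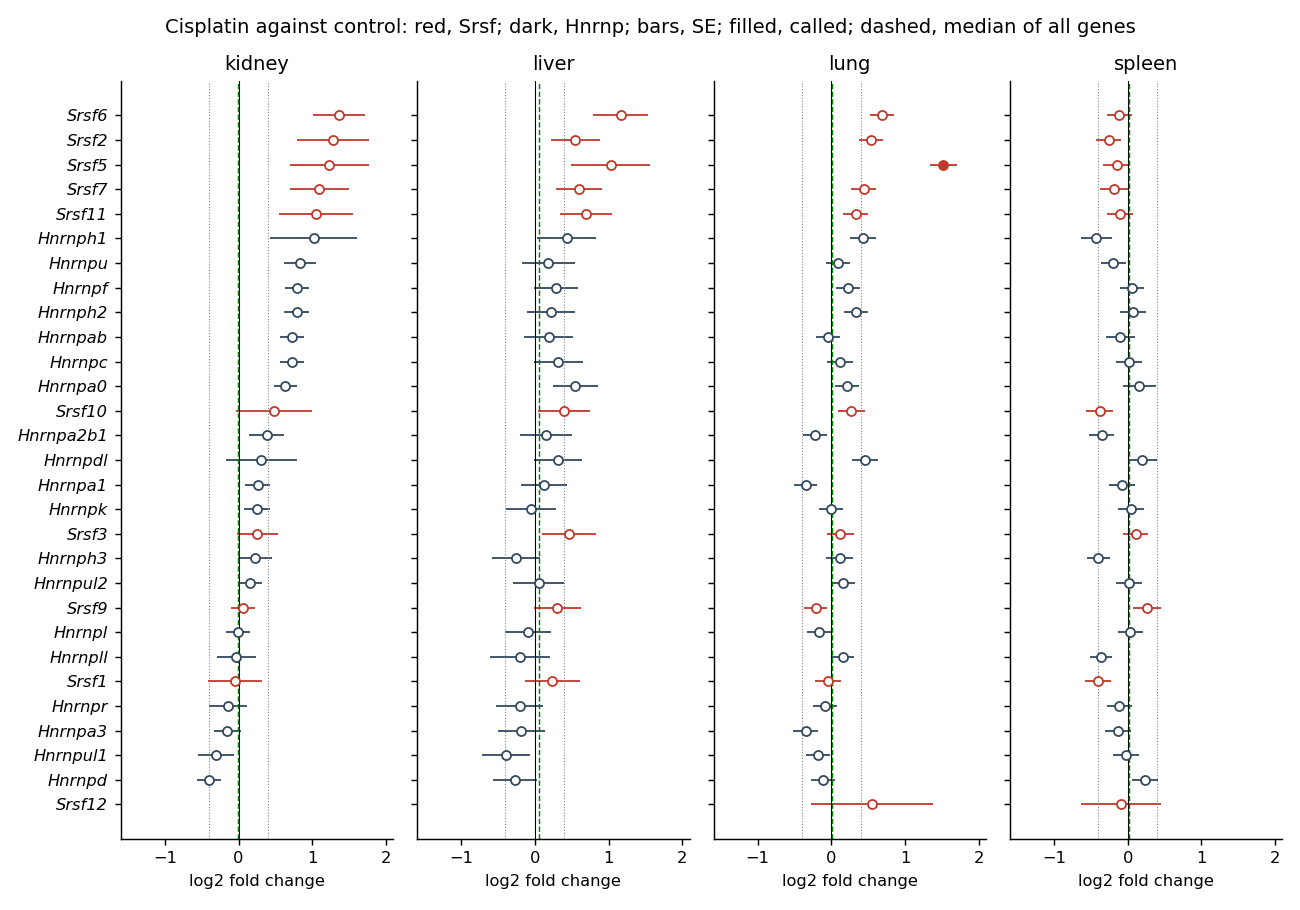
Log2 fold change after cisplatin for each gene in each organ, with the SE as bars, Srsf genes in red and Hnrnp genes in dark blue, and the median of all genes as a dashed line. The single filled point is Srsf5 in lung at 1.52, and the red points are the rightmost in the kidney, at up to 1.36.

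Whether the response differed between organs was tested on its own, with 1 F-test over the 4 organs. edgeR called 40 of 19088 genes (0.210%) and 0 of the 29, and 0 of the 29 had an unadjusted p under 0.05. The smallest adjusted values were 0.615 for Hnrnpf and 0.66 for Srsf6 by edgeR. The larger Srsf values in the kidney, liver and lung than in the spleen were therefore not shown to differ between organs.

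Genes that act with these factors were described from lists. Of 21 hnRNP proteins with other names, 1 was called higher and 1 lower in the kidney, and 1 higher and 2 lower in the lung. Cirbp, the cold-inducible RNA-binding protein, rose in the kidney (log2 fold change 1.78) and in the lung (1.46). In the other organs it was not called, with 7.48 and 5.22 RPKM in liver controls and 11.6 and 22.5 after cisplatin. In spleen it had 17.2 and 17.7 RPKM in controls and 48.5 and 45.4 after cisplatin. Msi2, a translational regulator of progenitor cells, fell in the kidney (-1.33) and lung (-1.48), and Pcbp3, a binder of cytidine tracts, fell in the lung (-1.93). Of 24 proteins that recognise splice sites and the branch point, 2 were called higher in the kidney, Sf3b4 (1.15) and U2af1 (1.06), and 0 in the other organs. Of 23 SR kinases, SR-like proteins and their importer, 0 were called in any organ, and their median log2 fold change was 0.54 in the kidney and 0.37 in the liver. Of 20 other regulators of splice site choice, Celf2 fell in the lung (-1.33) and none was called elsewhere.

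Promoter sequence was compared for the Srsf genes with the largest kidney values. A RefSeq promoter window of 300 bases (GRCm38.p6) was found for 27 of the 29 genes. Matches on either strand were counted for a cyclic AMP response element (CRE, TGACGTCA), its core (TGACG, also part of the full element), an E-box with the letters CACGTG, a box named for its letters CCAAT, a GC box with the letters GGGCGG and a TATA box with the letters TATAAA. The GC box was in 22 of 27 windows (81.5%) against 35.7% of all 32851 windows, the CRE core in 16 (59.3%) against 20.8%, and the CCAAT box in 16 (59.3%) against 37.4%. The E-box was in 3 (11.1%) against 7.15%, the TATA box in 3 (11.1%) against 13.6%, and the full CRE in 0 against 1.79%. A match is a run of letters and not a bound site.

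The stretches upstream of Srsf2, Srsf5, Srsf6 and Srsf7 that lie in no annotated exon are shown 5′ to 3′ on the gene's strand, with every matched motif in capitals, where CCGCCC is the GC box and CGTCA the CRE core on the opposite strand; neighbouring GC boxes can overlap. They lie at chr11:116853095-116853294 (minus strand), chr12:80945397-80945498 (plus), chr2:162931258-162931507 (plus) and chr17:80207308-80207459 (minus).
Srsf2: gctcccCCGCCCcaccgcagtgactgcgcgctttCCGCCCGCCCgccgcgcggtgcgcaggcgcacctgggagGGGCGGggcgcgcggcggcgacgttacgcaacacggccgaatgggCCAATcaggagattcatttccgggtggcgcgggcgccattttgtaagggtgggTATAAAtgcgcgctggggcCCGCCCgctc
Srsf5: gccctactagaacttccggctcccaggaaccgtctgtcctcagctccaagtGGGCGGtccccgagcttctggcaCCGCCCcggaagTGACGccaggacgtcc
Srsf6: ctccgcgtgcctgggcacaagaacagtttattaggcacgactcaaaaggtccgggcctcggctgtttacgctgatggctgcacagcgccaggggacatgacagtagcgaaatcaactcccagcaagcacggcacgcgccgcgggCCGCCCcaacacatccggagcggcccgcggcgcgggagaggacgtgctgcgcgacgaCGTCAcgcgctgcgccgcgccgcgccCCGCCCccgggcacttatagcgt
Srsf7: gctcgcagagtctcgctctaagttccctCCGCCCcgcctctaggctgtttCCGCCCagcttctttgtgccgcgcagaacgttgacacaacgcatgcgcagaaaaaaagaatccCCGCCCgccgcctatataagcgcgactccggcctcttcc
Each of the 4 holds at least a pair of GC boxes, Srsf5 and Srsf6 hold a CRE core, which Srsf2 has in its window outside the printed stretch, and only the Srsf2 stretch holds a CCAAT box and a TATA box among these 4.

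Since cisplatin reacts with neighbouring guanines, the number of GG dinucleotides on a strand bears on how many adducts it can carry. The 29 genes had a median of 45.9 GG per kilobase on the TS and 62.4 on the NTS, where all 16502 genes compared had 61.8 and 64.0. More GG stood on the NTS than on the TS in 26 of the 29 genes, a share of 89.7% against 60.5% of all genes. Their median length was 10147 bp against 16764 bp. In coding sequence the median Hnrnp gene had 94.0 GG per kilobase on the NTS and 46.7 on the TS, and the median Srsf gene had 70.8 and 64.5.

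The asymmetry is visible in the coding stretches of 120 bases that hold most GG on the NTS. They are shown for Hnrnpa2b1 (exon 9, chr6:51464428-51464547, minus strand) and Hnrnpa0 (exon 1, chr13:58127652-58127771, minus strand), whose glycine-rich tails are written in GG-rich codons, and for Srsf5 (exon 2, chr12:80946595-80946714, plus strand) and Srsf6 (exon 6, chr2:162934455-162934574, plus strand). The NTS is written 5′ to 3′ from GRCm38 with GG in capitals.
Hnrnpa2b1: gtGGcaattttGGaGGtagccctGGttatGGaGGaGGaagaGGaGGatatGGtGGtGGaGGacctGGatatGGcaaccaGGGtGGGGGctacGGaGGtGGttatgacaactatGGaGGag
Hnrnpa0: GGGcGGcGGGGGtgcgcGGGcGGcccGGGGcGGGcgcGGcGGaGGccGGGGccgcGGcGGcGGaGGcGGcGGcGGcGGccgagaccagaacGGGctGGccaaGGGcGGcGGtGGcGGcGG
Srsf5: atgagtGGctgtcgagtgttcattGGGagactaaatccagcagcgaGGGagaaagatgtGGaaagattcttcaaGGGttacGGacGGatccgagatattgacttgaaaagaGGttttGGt
Srsf6: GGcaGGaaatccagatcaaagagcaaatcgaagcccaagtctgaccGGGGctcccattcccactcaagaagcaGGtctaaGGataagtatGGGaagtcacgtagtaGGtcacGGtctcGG
The NTS of these stretches held 26, 39, 12 and 12 GG, and the TS held 4, 7, 2 and 8. All strand comparisons below were therefore made per GG of the strand.

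Excision was higher on the TS than on the NTS in 19 to 27 of these genes, depending on the organ. In XR-seq the reads per GG on the TS were called above the NTS (edgeR, paired by library) in 26 of the 29 genes in the kidney, 19 in the liver, 27 in the lung and 24 in the spleen. Over all genes the shares were 58.3%, 52.0%, 61.0% and 59.4%. Only Hnrnph3 in liver was called the other way, where the shares of all genes were 6.19% in the kidney, 7.19% in the liver, 7.34% in the lung and 7.17% in the spleen. The median log2 ratio of TS to NTS over the 29 genes, 1.67 to 3.90 in the 8 libraries, compares with 2.01 to 3.27 for all genes. In the fits it was 2.58, 1.80, 3.32 and 3.41 in kidney, liver, lung and spleen. The highest of 5 equal groups of genes by expression, where most of the 29 lie, had 3.39, 2.59, 4.16 and 3.98. These group values come from ratios with 0.5 reads added to each strand and not from the fits. On that same ratio the median of the 29 genes in each library was also below the group value of its organ. Without liver replicate 1 and 2 the liver count was 3 and 5, and without lung replicate 2 the lung count was 16. Without correction for GG the liver count was 9.

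The highest ratios belonged to Hnrnpa1, Srsf6 and Hnrnph2, with means over 8 libraries of 5.36, 4.79 and 4.62 on the log2 scale. Hnrnpa1 had 26 and 215 TS reads in the kidney, 135 and 76 in the liver, 360 and 239 in the lung and 52 and 148 in the spleen. Its NTS had 1 and 3 reads in the kidney, 12 and 6 in the liver, 0 and 15 in the lung and 7 and 9 in the spleen. Every library held several times more reads on the TS than on the NTS of this gene, but a ratio over so few NTS reads is imprecise. Its NTS levels were at most 1.52 RPM (reads per 1000000 reads on genes) per 1000 GG, against 5.33 to 29.1 on the TS.

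Srsf6 had 54.0 to 107 RPM per 1000 GG on the TS of kidney, lung and spleen and 34.3 and 30.4 in the liver. Its NTS had 0 to 5.44. In spleen replicate 1 the TS held 212 reads of Srsf6 and the NTS 0. Hnrnph2 had 5.68 and 6.66 on the TS in the liver and 11.4 to 22.0 elsewhere, with 0 to 2.07 on the NTS, and was not called in the liver.

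The lowest ratios belonged to Hnrnph3, Srsf12 and Hnrnph1, with means of -0.25, 0.07 and 0.75. Hnrnph3, a member of the H and F group, had 35.5 and 38.9 RPM per 1000 GG on the TS in the kidney and 40.6 and 39.3 on the NTS. In liver it had 23.2 and 17.8 on the TS and 40.2 and 47.5 on the NTS (log2 ratio -1.10, SE 0.23, edgeR adjusted p = 0.00284), and in lung 37.1 and 32.4 on the TS and 23.4 and 27.1 on the NTS. Both NTS libraries were above the TS in the kidney and, by more, in the liver, and both TS libraries were above the NTS in the lung. Rufy2, a gene on the opposite strand, overlaps 26.7% of Hnrnph3, and the reads on the NTS of Hnrnph3 are there reads on the TS of Rufy2. Of the 29 genes, 6 overlap an opposite-strand gene of the files, namely Hnrnpab (Phykpl, 65.1% of its length), Hnrnph3, Srsf2 (Mfsd11, 20.5%), Hnrnpu (Cox20, 9.50%), Hnrnpk (Rmi1, 8.98%) and Hnrnpf (4933440N22Rik, 7.72%). Mettl23, which was not counted in the files, also lies opposite 100% of Srsf2. Among the other 23 genes the TS was called above the NTS in 22 in the kidney, 18 in the liver, 22 in the lung and 21 in the spleen.

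Srsf12, the gene with hardly any transcripts, had little excision on either strand. Its TS had 2.76 and 1.70 RPM per 1000 GG in the kidney, 1.44 and 1.82 in the liver, 0.128 and 0.36 in the lung and 1.77 and 1.77 in the spleen, and it was not called on either strand in any organ. Hnrnph1 had 16.6 and 15.6 on the NTS in the kidney, 22.1 and 23.9 in the liver, 14.9 and 13.9 in the lung and 19.8 and 20.5 in the spleen. Its TS had 50.9 and 57.2 in the kidney but 22.0 and 20.4 in the liver, where no difference between the strands was called (log2 ratio -0.12, SE 0.29).

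**Figure D4:**
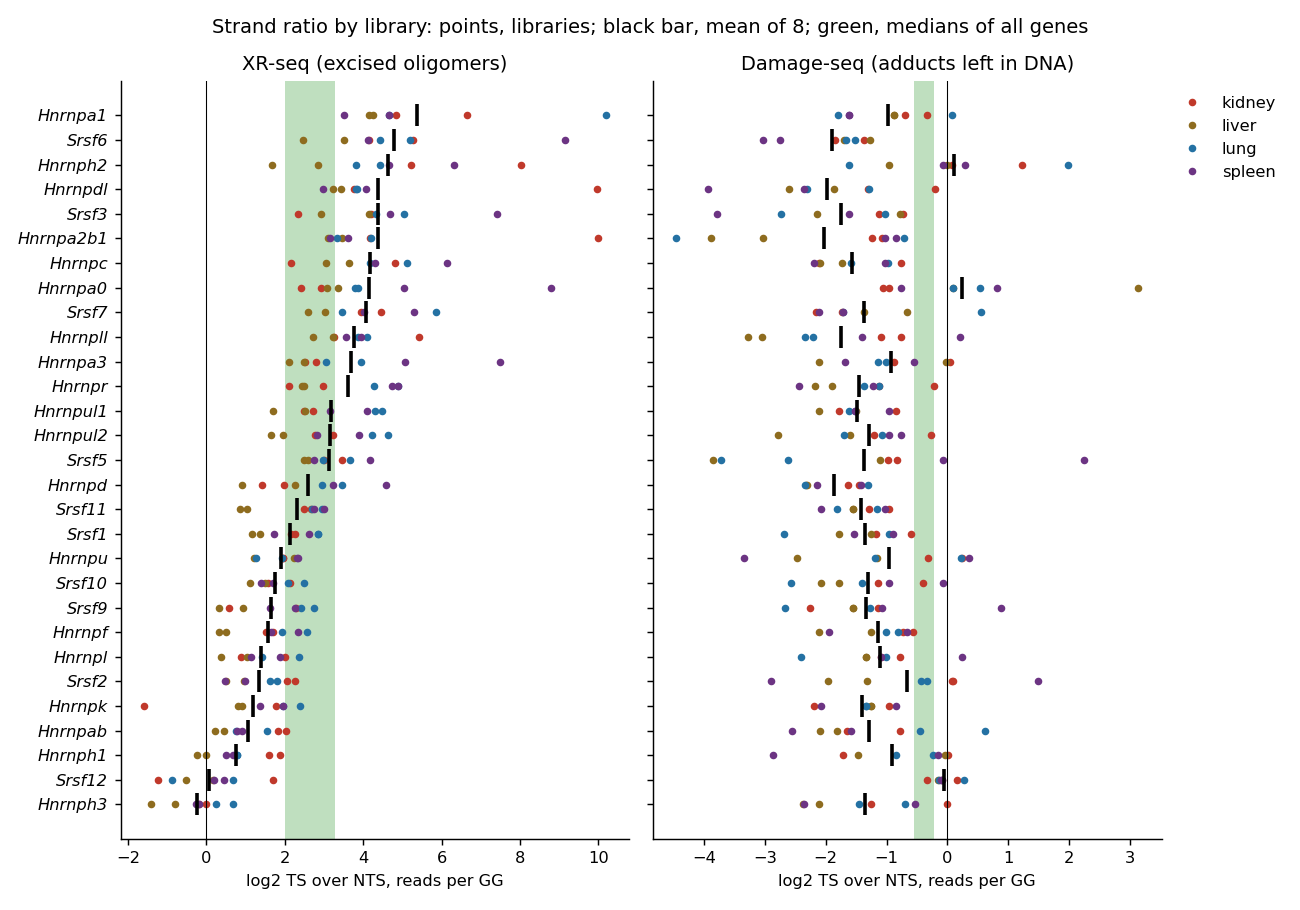
Strand ratio (log2 of TS over NTS, per GG) for each gene, with 0.5 reads added to each strand, in XR-seq (left) and Damage-seq (right); points are libraries coloured by organ, black bars the mean of 8 libraries and the green band the range of the all-gene medians. XR-seq points lie mostly right of 0 with Hnrnpa1 at 5.36 on top, and Damage-seq points mostly left of 0.

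Excision on the TS was most often highest in the kidney and lowest in the liver. By an F-test over the 4 organs (edgeR) 14 of the 29 genes were called, where the share of all genes was 55.9%. Per reads on genes, kidney was the highest organ in 23 of the 29 genes and liver the lowest in 27, where the shares of all genes were 31.4% and 43.0%. With TMM scaling the counts were 22 and 19. Leaving out single libraries gave 8 to 18 calls, with 9 and 8 without liver replicate 1 and 2 and 8 and 9 without lung replicate 1 and 2.

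Hnrnpul2, an SAF-A relative, had 75.5 and 65.3 RPM per 1000 GG on the TS in the kidney, 25.4 and 26.0 in the liver, 55.0 and 52.5 in the lung and 32.0 and 47.6 in the spleen (edgeR adjusted p = 0.00539). Kidney was 2.74-fold above liver and the kidney libraries were above all others. Hnrnpf had 41.5 and 44.5 in the kidney, 19.4 and 19.2 in the liver, 29.5 and 30.3 in the lung and 30.7 and 32.8 in the spleen (edgeR adjusted p = 0.00599), so kidney was highest and liver lowest without overlap. Hnrnpul1, which has been linked to the DNA damage response, had 32.1 and 46.8 in the kidney, 23.3 and 19.5 in the liver, 49.2 and 50.5 in the lung and 35.5 and 45.7 in the spleen (edgeR adjusted p = 0.0067). For Hnrnpul1 lung was highest and liver lowest, and neither overlapped the other organs.

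The Srsf genes that were called on the TS were Srsf1, Srsf2, Srsf6, Srsf11 and Srsf12. Srsf1, the founding SR protein, averaged 72.1 RPM per 1000 GG in the kidney, 22.6 in the liver, 42.6 in the lung and 44.7 in the spleen, a 3.19-fold range. Srsf2 averaged 89.1, 33.8, 51.0 and 45.0, and Srsf6 97.0, 32.4, 54.3 and 61.0, in the same order. Srsf5, the gene called in lung RNA, was not called: its TS had 31.4 and 50.3 in the kidney, 23.7 and 27.6 in the liver, 29.3 and 28.4 in the lung and 40.0 and 35.1 in the spleen. The highest TS value of all belonged to Hnrnpa0, an intronless gene, with 144 and 184 in the kidney and 62.0 and 50.9 in the liver.

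On the NTS 2 of the 29 genes were called between organs by the same test, a smaller share than the 23.1% of all genes. Hnrnpr, which binds RNA in axons and the nucleus, had 7.25 and 4.84 RPM per 1000 GG in the kidney, 3.53 and 3.54 in the liver, 1.80 and 1.22 in the lung and 1.15 and 1.05 in the spleen (edgeR adjusted p = 0.014). Its kidney libraries were above all others and its spleen libraries below. Hnrnpab had 19.7 and 22.5 in the kidney, 36.9 and 36.2 in the liver, 26.7 and 20.4 in the lung and 22.8 and 30.6 in the spleen (edgeR adjusted p = 0.0411), with liver highest. Phykpl lies opposite 65.1% of Hnrnpab. Leaving out single libraries gave 1 to 5 calls: 5 without kidney replicate 2, 2 and 3 without spleen replicate 1 and 2, and 1 without any other library.

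**Figure D5:**
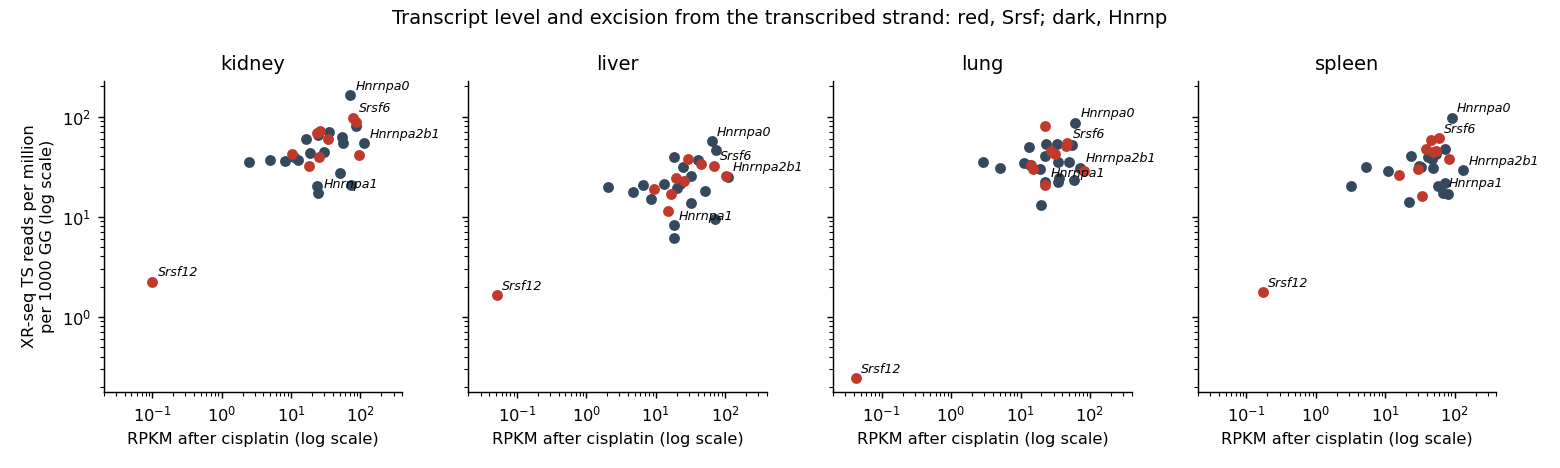
XR-seq RPM per 1000 GG on the TS against RPKM after cisplatin in each organ, both on log axes, each point a gene and the mean of 2 libraries (red, Srsf; dark blue, Hnrnp). Srsf12 lies alone at the lower left and Hnrnpa0 at the top in every organ.

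Transcript level and excision were set side by side. After cisplatin 22 of the 29 genes in the kidney, 21 in the liver and 25 each in lung and spleen were in the highest of 5 equal groups of genes by expression. Across the 29 genes, which share their libraries, Pearson's r between log2 RPKM and log2 TS reads per GG was 0.65 in the kidney, 0.64 in the liver, 0.71 in the lung and 0.67 in the spleen, and Spearman's rho was 0.53, 0.52, 0.24 and 0.32. Srsf12 stood far from the rest. Over all 16502 genes r was 0.74, 0.67, 0.71 and 0.75 and rho 0.74, 0.64, 0.70 and 0.74. Hnrnpa1 had 24.5 RPKM after cisplatin in the kidney and a TS level of 17.2 RPM per 1000 GG, whereas Hnrnpa0 had 71.4 RPKM and 164.

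Adducts remaining in the DNA were fewer on the TS than on the NTS in 9 to 18 of these genes, depending on the organ. In Damage-seq the reads per GG on the TS were called below the NTS in 15 of the 29 genes in the kidney, 18 in the liver, 18 in the lung and 9 in the spleen (edgeR, paired by library). Of all genes, 22.5% in the kidney, 35.2% in the liver, 27.7% in the lung and 13.0% in the spleen were called below. The median log2 ratio of the 29 genes was -0.93, -1.67, -1.38 and -1.37 in the kidney, liver, lung and spleen, where that of all genes was -0.28, -0.53, -0.34 and -0.32. Genes in the highest of the 5 groups, where most of the 29 lie, had medians of -0.77, -1.46, -0.91 and -0.81. These group values come from ratios with 0.5 reads added to each strand and not from the fit. On that ratio the medians of the 29 genes were -1.145 and -0.77 in the kidney libraries and -1.73 and -1.54 in the liver. They were -1.29 and -1.15 in the lung and -1.42 and -1.07 in the spleen. Damage-seq had a median of 6.5 reads per gene and library on the TS and 24 on the NTS, with 14 and 2 of 232 values at 0, so single genes were imprecise. Without kidney replicate 1 and 2 the kidney count was 0 and 8, without liver replicate 1 the liver count was 8, without either lung library the lung count was 11, and without either spleen library the spleen count was 1.

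The lowest ratios in Damage-seq belonged to Hnrnpa2b1, Hnrnpdl and Srsf6, with means over 8 libraries of -2.03, -1.99 and -1.89. Hnrnpa2b1 had 12 and 13 TS reads in the kidney, 2 and 0 in the liver, 0 and 8 in the lung and 2 and 3 in the spleen. Its NTS had 49 and 47, 34 and 12, 18 and 23, and 8 and 10 reads in the same order. Every library had fewer reads on the TS, and the ratio was called in the kidney, liver and lung. Hnrnpdl, a relative of Hnrnpd, had 0 to 15 TS reads and 7 to 37 NTS reads per library and was called in the liver, lung and spleen. Srsf6 had 8 and 6 TS reads against 29 and 31 NTS reads in the kidney, and 0 and 0 against 5 and 4 in the spleen.

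At the other end were Hnrnpa0, Hnrnph2 and Srsf12, with means of 0.24, 0.12 and -0.05, and none of them was called in any organ. Hnrnpa0 had only 1 to 4 TS reads and 0 to 16 NTS reads per library. Srsf12 had 21 to 119 TS reads and 20 to 96 NTS reads, the deepest of the 3, and its ratio stayed between -0.33 and 0.28 in the 8 libraries. This gene, with the lowest transcript level of the 29, had close to equal read numbers per GG on both strands.

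Between organs, Damage-seq reads were called to differ on the TS in 8 of the 29 genes (edgeR F-test), where the share of all genes was 22.9%, and on the NTS in 3, where it was 12.9%. Kidney was the highest organ in 24 of the 29 genes on the TS and in 22 on the NTS, against 53.4% and 50.0% of all genes, and in 20 and 19 with TMM scaling. The values are relative to the reads of each library and do not give the total damage of an organ. Hnrnpll had 4.84 and 6.50 RPM per 1000 GG on the TS in the kidney, 1.32 and 1.25 in the liver, 1.85 and 1.63 in the lung and 9.19 and 3.78 in the spleen (edgeR adjusted p = 0.000601). Liver and lung were below the others without overlap.

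Hnrnpul2 had 8.84 and 14.4 RPM per 1000 GG on the TS in the kidney, 3.52 and 1.17 in the liver, 4.01 and 3.06 in the lung and 7.25 and 7.08 in the spleen (edgeR adjusted p = 0.00545). Hnrnpl, which binds CA repeats, had 9.97 and 11.6 on the TS in the kidney, 3.39 and 4.75 in the liver, 1.58 and 5.22 in the lung and 4.69 and 4.76 in the spleen (edgeR adjusted p = 0.0115). Its NTS had 17.1 and 24.8 in the kidney, 8.80 and 12.4 in the liver, 8.84 and 10.6 in the lung and 3.96 and 10.4 in the spleen (edgeR adjusted p = 0.00386). Kidney was above the other organs on both strands of Hnrnpl. On the NTS Hnrnpul1 (17.8 in the kidney, 8.52 to 10.3 elsewhere, edgeR adjusted p = 0.0144) and Hnrnpab (16.4 in the kidney, 6.21 to 7.67 elsewhere, edgeR adjusted p = 0.0447) were also called, with kidney highest. DESeq2 called 1 of the 29 genes on the TS and 0 on the NTS. In edgeR 10 and 11 of the 29 had an unadjusted p under 0.05, as did 5851 and 4531 of all 16502 genes. On the TS edgeR called 4 and 1 without kidney replicate 1 and 2 and 5 without liver replicate 1. On the NTS it called 0 without kidney replicate 2 and 6 and 5 without lung replicate 1 and 2.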

How the data were processed

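The authors deposited read counts per gene for every library: RNA-seq counts over exons (STAR and featureCounts) and Damage-seq and XR-seq counts for both strands of every gene (cutadapt, BWA and Picard, on mm10), after their own filters on mapping quality and on GG at the damage position. Tool versions are not given in the sources used here. The RNA kit was not strand-specific and the counting strand is not stated, so RNA reads of overlapping genes on opposite strands, and of close paralogs and pseudogenes, are uncertain. In each Damage-seq and XR-seq file 1 line without an identifier was left out.

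RNA-seq was fitted organ by organ with edgeR 4.0.16 in R 4.3.3 (TMM, filterByExpr, quasi-likelihood, threshold of 0.4 on the log2 scale), with Benjamini-Hochberg adjustment over all genes tested and calls under 0.05. A control pair with a dispersion index (chi-square over degrees of freedom) of 3 or below was summed as 1 sample, which applied to lung and spleen. Damage-seq and XR-seq were compared on genes under 100000 bp with at least 10 GG on either strand and 20 reads in total per assay. Organs were compared with an F-test, and strands with a term per library and an offset for GG. Levels are reads per 1000000 reads on genes and per 1000 GG, and the plotted strand ratio adds 0.5 reads to each strand. DESeq2 1.42.0 was an alternative. The tests were tried on simulated counts with known changes.

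The genes and lists were chosen with earlier results of these data known. Values per library are given for genes called after cisplatin, for the 3 highest and 3 lowest levels and strand ratios, and for the 3 smallest p in each comparison between organs. Genes outside that rule were chosen after their values were seen. Alternatives were other scalings, filters, tools, a replicate block and leaving out single libraries.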

Additional observations from a re-analysis of the deposited data

Results flagged for a closer look

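In 11 comparisons both libraries of one organ had a strand ratio (log2 TS to NTS per GG) on one side of 0 and both libraries of another organ on the other side. None of these differences was tested.

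In XR-seq Hnrnph1 had ratios of 1.61 and 1.87 in the kidney, -0.01 and -0.23 in the liver, 0.77 and 0.78 in the lung and 0.68 and 0.51 in the spleen. The difference was 1.86 for kidney minus liver, -0.89 for liver minus lung and -0.71 for liver minus spleen. Hnrnph3 had ratios of -0.19 and -0.02 in the kidney, -0.80 and -1.41 in the liver, 0.67 and 0.26 in the lung and -0.28 and -0.20 in the spleen. The difference was -0.56 for kidney minus lung, -1.57 for liver minus lung and 0.70 for lung minus spleen.

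In Damage-seq Hnrnpa0 had ratios of -0.96 and -1.05 in the kidney, 0.09 and 3.15 in the liver and 0.53 and 0.09 in the lung, a difference of -2.62 for kidney minus liver and -1.32 for kidney minus lung. Its liver libraries held 1 and 2 TS reads and 2 and 0 NTS reads. Hnrnph2 had ratios of 0.07 and 1.23 in the kidney and -0.97 and -0.00 in the liver, a difference of 1.14. Srsf2 had ratios of 0.09 and 0.08 in the kidney, -1.97 and -1.31 in the liver and -0.43 and -0.33 in the lung, a difference of 1.73 for kidney minus liver and 0.47 for kidney minus lung.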

How the results depend on the processing

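Of 189 alternative counts of called genes, 135 stayed within 1.5 times the value reported, and 54 moved further; of 432 alternatives for single genes, 380 kept direction and side of the threshold, 22 passed it, 29 no longer did and 1 reversed (Hnrnph1 in liver, log2 fold change -0.095 without cisplatin replicate 1 and 0.75 without cisplatin replicate 2). The cause was not tested. After cisplatin, the kidney count of 0 was 6 with no filter and 4 against 0, and 0 to 9 with single libraries left out. The lung count of 1 was 0 in 1 fit over all organs, 2 with each control library a replicate, and 0 to 1 with single libraries left out. For untreated organs, the count of 1 in kidney was 3 against 0 (1 to 4 with libraries left out). The count of 3 in liver was 1 with median-of-ratios scaling and 6 against 0 (1 to 4). The count of 14 in spleen was 9 with median-of-ratios scaling and 22 against 0 (10 to 18). Between organs, the XR-seq TS count of 14 was 22 without TMM (8 to 18). The XR-seq NTS count of 2 was 8 without TMM, 4 with no filter and 6 with DESeq2 (1 to 5). The Damage-seq TS count of 8 was 1 with DESeq2 (1 to 10), and the NTS count of 3 was 9 without TMM, 9 with no filter and 0 with DESeq2 (0 to 6). Between strands, the XR-seq count in the liver, 19, was 9 without GG correction. Leaving out 1 of an organ's 2 libraries gave 21 to 27 in the kidney, 3 to 5 in the liver, 16 to 20 in the lung and 18 in spleen for XR-seq, and 0 to 8, 8 to 15, 11 and 1 for Damage-seq; the lone library was then assumed to vary like those of the other organs. Without genes that overlap an opposite-strand gene, chosen after seeing the data, the Damage-seq counts were 12, 13, 16 and 8.

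The labels do not say whether libraries with the same replicate number share an animal, a day or a batch. The paper corrected for known batches with ComBat, but the labels do not name these batches. Deviations of same-numbered RNA libraries correlated at 0.48 in the kidney, 0.39 in the liver, 0.06 in the lung and 0.33 in the spleen, over 2 numbers only. With the replicate number as a block, 12 genes were called in the kidney (3181 of all genes), among them Srsf2, Srsf5, Srsf6, Srsf7, Srsf11 and Hnrnph1, whose call it changes. It called 2 in the liver (809 of all genes), 2 in the lung (1914), Srsf5 and Srsf6 in both, and 0 in the spleen (89), 6 in the test between organs (1779 of 19088) and 1 on the XR-seq NTS (3471 of all genes).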
